A study of Mus musculus with 12 samples.

Results

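The epidermal growth factor (EGF) ligands and their ErbB receptors were followed in mouse hearts through 10 genes: the ligands Hbegf, Areg, Ereg, Btc, Tgfa and Nrg1 and the receptors Egfr, Erbb2, Erbb3 and Erbb4. Members were taken by symbol, as every probe set annotated to 1 of these genes and to no other. This gave 20 of the 34945 single-gene probe sets and 9 of the 18193 genes with such a probe set. Areg, the gene of the ligand amphiregulin, had no probe set annotated to it in the table used here and has no value.

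EGF-family ligands are made as membrane-anchored precursors, and metalloproteases of the ADAM family release their soluble forms. A ligand brings ErbB receptors together in pairs, whose kinases pass the signal through adaptor proteins to the Ras-ERK and PI3K-Akt cascades; Erbb2 has no known ligand of its own and Erbb3 has little kinase activity, so both work with a partner. In the heart, Nrg1 from endothelial cells acts on Erbb4 and Erbb2 of cardiomyocytes, and release of heparin-binding EGF (Hbegf) from its precursor is a known step of hypertrophic signalling. Areg, Ereg and Btc lie next to one another in the mouse genome, with Epgn, another ligand of the family, beside Ereg.

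Hearts came from wild-type mice and from mice lacking the apelin gene (Apln), a peptide hormone of the cardiovascular system. Each genotype was studied after aortic banding, which loads the heart with pressure, and after a sham operation, and each of the 4 groups had 3 Affymetrix arrays labelled as biological replicates. Wild-type sham and banded hearts and knockout sham and banded hearts thus form the 4 groups, and the sources used here do not give strain, age, sex, time after surgery or the part of the heart taken. The knockout is described as a deletion of the gene, with no promoter or cell type named.

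Total RNA of heart samples was labelled with biotin, and 1 intensity per probe set, on a linear scale, was compared between arrays. All 12 arrays had the same trimmed mean (150), and 25.8% to 29.8% of the values of an array lay below 16, the constant added before taking log2. All 6 cardiomyocyte markers examined read above 16 on every array. The array labelled knockout banded 1 went against its label: its Apln intensity was 271, against 63.7 to 160 on the other 5 knockout arrays and 205 to 333 on the 6 wild-type arrays. Its summed intensity of 7 airway and lung epithelium markers was 1766, against 239 to 374 on the other 11 arrays. Scgb1a1 (1094) and Scgb3a2 (410) made up most of that sum. Sftpc, Sftpb, Sftpa1 and Epcam lay within the range of the other arrays, and Cdh1 was below 16, so the markers did not rise as 1 set. The Hbegf, Ereg, Nrg1, Erbb4 and pathway results are given with and without it below.

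Hbegf was the member that rose with banding. On the probe set that stands for the gene (1418350_at), its intensity was 209.8, 206 and 297 in wild-type sham hearts, and 335, 472 and 347 in wild-type banded hearts. In knockout sham hearts it read 262, 234 and 265, and in knockout banded hearts 367, 892 and 1376. Every banded array of either genotype lay above every sham array, and the arrays labelled knockout banded 2 and 3 lay far above the rest. Group means were 237 ± 51.5, 384 ± 75.7, 254 ± 17.4 and 878 ± 505 (SD, n = 3 each) in that order. The 2 sham groups differed by less than their spread, and the array labelled knockout banded 1 fell inside the range of the wild-type banded arrays.

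In knockout hearts the Hbegf difference of banded minus sham was 1.54 on the log2(value + 16) scale (SE 0.34, 95% interval 0.80 to 2.29), a 2.92-fold rise with an adjusted p of 0.0314 in limma's moderated test. Averaged over genotypes it was 1.10 (SE 0.24, interval 0.58 to 1.63), with an adjusted p of 0.0442 in limma's moderated test. The exact two-sided permutation test of the 6 banded against the 6 sham arrays gave p = 0.00216 for this probe set, the smallest p that 6 against 6 can give. Hbegf was the 1 of the 6 tested members that passed in either comparison. Of all 10916 tested genes, 3.81% passed for banding in knockout hearts (2.05% upward, 1.76% downward) and 1.6% for banding averaged over genotypes (0.934% upward, 0.669% downward). Banded arrays all lay above sham arrays for 12.2% of tested genes in the first comparison and for 0.568% in the second. RNA was taken from tissue, so fewer cells of a type and less RNA per cell cannot be told apart here, nor more cells and more RNA.

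**Figure D1:**
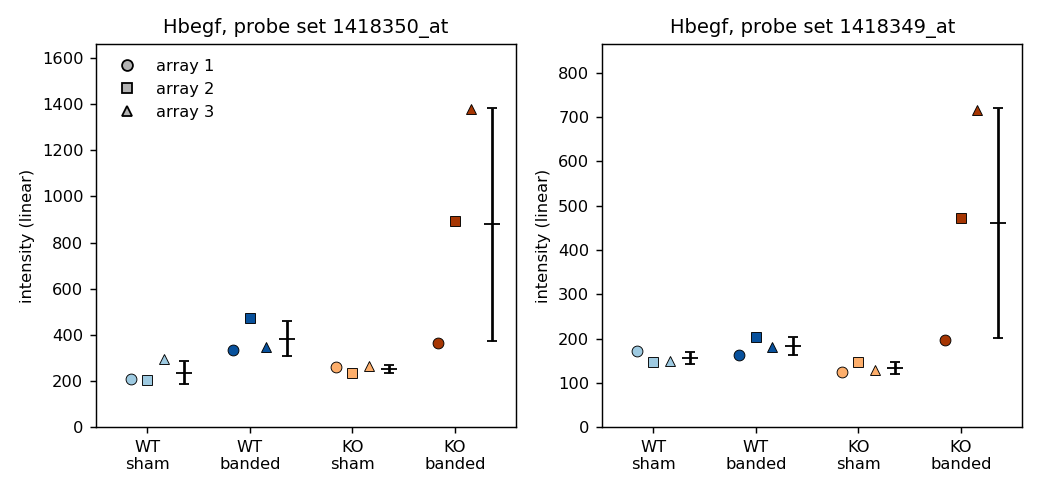
Intensity of the 2 Hbegf probe sets (vertical axis, linear scale) on each of the 12 arrays (points, 3 per group, marker shape by array number), with the group mean and SD beside them. On 1418350_at the 6 banded arrays sit at 335 or above and the 6 sham arrays at 297 or below; the arrays labelled knockout banded 2 and 3 reach 892 and 1376.

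In wild-type hearts the Hbegf difference was 0.66 (SE 0.34, interval -0.08 to 1.40) and did not pass (adjusted p = 0.921, limma). The 3 banded arrays lay above the 3 sham arrays, as 3.76% of tested genes did in that comparison and direction, and 3 against 3 arrays cannot give an exact p below 0.10. No gene of the 10916 passed for banding in wild-type hearts, 0%, although 534, or 4.89%, had an unadjusted p under 0.05 in limma. The difference between the 2 genotypes' banding responses was tested directly for Hbegf and was 0.88 (SE 0.48, interval -0.17 to 1.93, adjusted p = 0.595, limma). With all arrays in the fit, the larger estimate in knockout hearts did not pass as a difference from wild type.

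In sham hearts the knockout minus wild-type difference of Hbegf was 0.11 (interval -0.64 to 0.85, adjusted p = 0.997, limma). Among banded hearts the knockout minus wild-type difference was 0.99 (SE 0.34, interval 0.25 to 1.73, adjusted p = 0.227, limma), with the array labelled knockout banded 1 among the wild-type values. Averaged over surgery it was 0.55 (interval 0.02 to 1.07, adjusted p = 0.458, limma). No member passed in these 3 comparisons or in the test of the difference between responses, where 0% of all tested genes passed. At an unadjusted p under 0.05, limma gave 5.22% of tested genes for genotype in sham hearts, 14.6% in banded hearts, 10.6% averaged over surgery and 9.11% for the difference between responses.

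The second Hbegf probe set, 1418349_at, read 173, 148 and 150.4 in wild-type sham hearts and 163, 204 and 182 in wild-type banded hearts. It read 124, 148 and 129 in knockout sham hearts and 196, 472 and 715 in knockout banded hearts. The knockout banded arrays again lay above all knockout sham arrays, as 9.05% of all probe sets did upward, whereas the wild-type groups overlapped. Its difference was 1.50 (interval 0.80 to 2.19) in knockout hearts and 0.20 (interval -0.50 to 0.89) in wild-type hearts. Both Hbegf probe sets thus gave nearly the same size in knockout hearts, while in wild-type hearts the estimate depended on the probe set.

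When all 34945 single-gene probe sets were fitted with no filter on low values, adjusted p-values for banding in knockout hearts were 0.0672 for 1418350_at and 0.0595 for 1418349_at (limma), so neither Hbegf probe set passed. In that fit 0 of the 20 member probe sets passed in any of the 7 comparisons, and 6 of the 20 had an unadjusted p under 0.05 for banding in knockout hearts. Without knockout banded 1, both Hbegf probe sets passed for banding in knockout hearts (adjusted p = 0.000306 for 1418350_at and 0.000179 for 1418349_at) and for genotype in banded hearts (0.00503 and 0.00178, limma). The difference between responses on 1418349_at then passed at 1.80 (adjusted p = 0.011), and on 1418350_at it was 1.40 (adjusted p = 0.0569, limma). Of all probe sets, 4.96% passed without that array for banding in knockout hearts. For genotype in banded hearts 2.22% passed, and for the difference between responses 0.484%. With all arrays, 0.667% of all probe sets passed for banding in knockout hearts and 13.8% had an unadjusted p under 0.05; for banding averaged over genotypes 0.28% passed. In the other comparisons 0.00286% passed for genotype in sham hearts, 0.0114% for genotype averaged over surgery, and none for banding in wild-type hearts, genotype in banded hearts or the difference between responses.

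Single arrays decided the Hbegf calls. The rise in knockout hearts remained above 1 log2 unit whichever array was left out, between 1.13 without knockout banded 3 and 2.06 without knockout banded 1. It lost its call without knockout banded 2 (adjusted p = 0.142) or 3 (0.119) and without knockout sham 1 (0.0862), 2 (0.101) or 3 (0.0912), and kept it without each of the other 7 arrays (limma). Most of the 416 genes called with all arrays also lost their calls without knockout banded 2, knockout banded 3 or knockout sham 3. Without the array labelled knockout banded 1, the adjusted p of Hbegf for banding in knockout hearts was 9.36e-05 (limma). Its knockout minus wild-type difference among banded hearts became 1.51 (adjusted p = 0.00205, limma). The difference between the genotypes' responses then became 1.40 (SE 0.28, adjusted p = 0.029, limma), and it was 1.34 when wild-type banded 3 was left out as well (adjusted p = 0.0688). The background moved too: without knockout banded 1, 13.2% of tested genes passed for banding in knockout hearts. For genotype in banded hearts 6.11% passed, and for the difference between responses 1.91%. For banding averaged over genotypes, Hbegf kept its call in 1 of the 12 fits with an array left out, the one without knockout banded 1 (adjusted p = 0.00027, limma). In that fit 9.12% of tested genes passed for the same comparison.

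**Figure D2:**
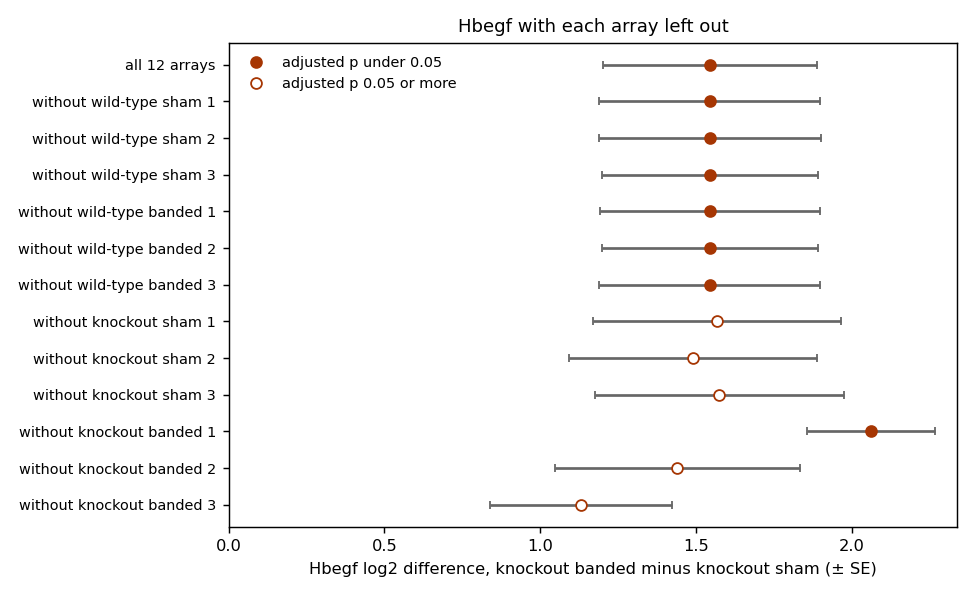
Hbegf log2 difference of knockout banded minus knockout sham (horizontal axis, points with standard error bars) with all 12 arrays and with each array left out; filled points have an adjusted p under 0.05. The value stays between 1.13 and 2.06, and the 5 open points are those without a knockout sham array or without knockout banded 2 or 3.

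Genes with a pattern over the 12 arrays most like that of Hbegf were Nudt18, Ltbp2 and Anxa7, by Pearson r of log2 values among 10915 tested genes. Nudt18 had r = 0.976 and a Spearman rho of 0.944, and without the 2 arrays farthest from the Hbegf median, knockout banded 2 and 3, r was 0.869. For Ltbp2, a binding protein of the extracellular matrix, r was 0.945, rho 0.727 and r without those arrays 0.688. For Anxa7, an annexin, these were 0.943, 0.825 and 0.674. The arrays share the 4 groups, so these values describe likeness only. Ltbp2 intensity was 562 and 621 on knockout banded 2 and 3, against 28.0 to 116 on the other 10 arrays. Ltbp2 was picked for its likeness to Hbegf on these same arrays, so this is not separate evidence.

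Of the other ligands, Ereg and Nrg1 gave very low signal and were not in the gene fit, which tested the upper 60% of genes by mean level. Ereg, the gene of epiregulin, read 15.4, 8.64 and 13.3 in wild-type sham, 10.1, 17.8 and 15.5 in wild-type banded, 2.47, 11.5 and 8.83 in knockout sham, and 3.75, 39.3 and 55.8 in knockout banded hearts. Knockout banded 2 and 3 were again the highest arrays, and 9 of the 12 values lay below 16. The added constant shrinks differences at this level, and the size of any Ereg change is uncertain. The Ereg difference in knockout hearts was 0.88 (interval 0.07 to 1.68, adjusted p = 0.311, limma over all probe sets), and arrays overlapped because knockout banded 1 read 3.75. Without that array Ereg passed, at 1.44 (adjusted p = 0.0040), in a fit where 4.96% of all probe sets passed. It also passed there for banding averaged over genotypes, at 0.77 (adjusted p = 0.0165, limma), where 3.57% of all probe sets passed. For knockout against wild type in banded hearts it passed at 1.06 (adjusted p = 0.0343, limma), where 2.22% of all probe sets passed. In wild-type hearts the Ereg difference was 0.10 (interval -0.71 to 0.90), and the difference between responses was 0.78 (interval -0.36 to 1.92, adjusted p = 0.775; 1.34 and 0.0831 without knockout banded 1).

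Nrg1, neuregulin 1, read 4.04, 1.95 and 7.83 in wild-type sham, 1.51, 9.53 and 1.58 in wild-type banded, 13.1, 7.29 and 1.64 in knockout sham, and 4.05, 19.2 and 23.7 in knockout banded hearts. Only knockout banded 2 and 3 reached 16. The Nrg1 difference in knockout hearts was 0.41 (interval -0.16 to 0.98, adjusted p = 0.548, limma), and it was 0.71 (adjusted p = 0.118) without knockout banded 1. Among banded hearts the knockout minus wild-type difference of Nrg1 was 0.61 (interval 0.04 to 1.18, adjusted p = 0.437), and 0.91 (adjusted p = 0.0733, limma) without that array. No Nrg1 comparison passed with or without it.

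Betacellulin (Btc) and transforming growth factor alpha (Tgfa), both ligands of Egfr, did not pass in any comparison. Btc (1435541_at) read 79.4, 77.0 and 63.6 in wild-type sham, 53.3, 70.5 and 58.0 in wild-type banded, 66.4, 74.5 and 67.5 in knockout sham, and 64.6, 70.0 and 72.2 in knockout banded hearts. All Btc groups overlapped, and its banding difference averaged over genotypes was -0.12 (interval -0.32 to 0.09, adjusted p = 0.557, limma). Its second probe set was below 16 on 9 arrays, with differences of -0.36 in wild-type and -0.22 in knockout hearts.

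Tgfa (1450421_at) read 79.2, 78.3 and 67.2 in wild-type sham, 51.0, 67.2 and 76.4 in wild-type banded, 78.0, 65.0 and 67.4 in knockout sham, and 51.1, 66.5 and 61.0 in knockout banded hearts. The groups overlapped, with an averaged banding difference of -0.19 (interval -0.42 to 0.05, adjusted p = 0.393, limma). The other Tgfa probe sets disagreed in sign, at -0.30 for 1421942_s_at and 0.30 for 1421943_at. The first ranged from 10.5 to 54.9 over the 12 arrays, with overlapping groups and a difference of -0.53 in knockout hearts (interval -1.11 to 0.06, adjusted p = 0.422, limma). On 1421943_at the wild-type banded arrays (32.8, 35.8 and 43.1) barely cleared the sham arrays (18.8, 29.5 and 32.7), as 4.12% of all probe sets did upward in that comparison. No Tgfa probe set passed.

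**Figure D3:**
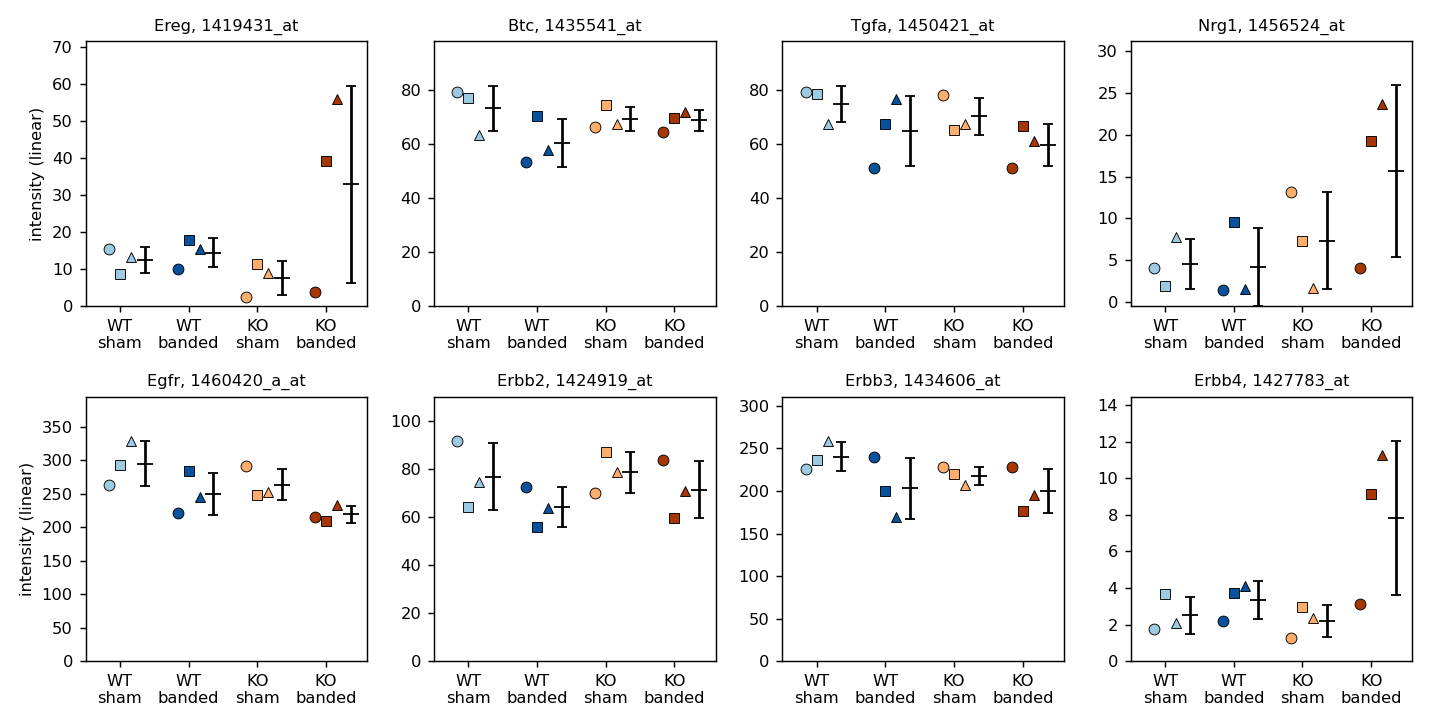
Intensity (vertical axis, linear scale, 1 range per panel) of the other 8 members on each array (points, marker shape by array number), with group mean and SD. Ereg and Nrg1 lie near or below 16 except on the arrays labelled knockout banded 2 and 3, where Ereg reads 39.3 and 55.8, and Erbb4 lies below 16 on all arrays; Btc, Tgfa, Egfr, Erbb2 and Erbb3 overlap between groups apart from Egfr in knockout hearts.

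Among the receptors, Egfr was measured by 7 probe sets. On the one that stands for the gene (1460420_a_at) it read 263, 293 and 329 in wild-type sham, 222, 284 and 245 in wild-type banded, 291, 248 and 252 in knockout sham, and 216, 209 and 233 in knockout banded hearts. The 3 knockout banded arrays lay below the 3 knockout sham arrays, as 14.4% of tested genes did in that direction, while the wild-type groups overlapped. The Egfr difference was -0.23 (interval -0.48 to 0.03) in wild-type and -0.25 (interval -0.50 to 0.01) in knockout hearts. Averaged over genotypes it was -0.24 (SE 0.08, interval -0.42 to -0.05, adjusted p = 0.164, limma), with an exact permutation p of 0.0216 before any adjustment. Egfr thus failed the correction, and its interval of -0.42 to -0.05 on this probe set is not adjusted for the number of genes tested.

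The remaining 6 Egfr probe sets did not all share that direction. On 1435888_at the knockout banded arrays read 68.3, 107 and 67.6 against 44.4, 60.2 and 54.0 in knockout sham hearts, a difference of 0.48 (interval 0.05 to 0.91, adjusted p = 0.302, limma). On 1432647_at the wild-type banded arrays (62.1, 72.0 and 64.8) lay above the sham arrays (50.1, 56.9 and 48.9), as 4.12% of all probe sets did upward. The difference was 0.28 (interval -0.07 to 0.62). On 1457563_at all 12 arrays were below 16, and the difference in knockout hearts was -0.42 (interval -0.82 to -0.02, adjusted p = 0.340, limma). Across the 7 Egfr probe sets the averaged banding difference ranged from -0.24 to 0.26, with 4 above 0, and the lowest adjusted p was 0.249 (limma). Probe sets of 1 gene can read different transcripts, and the table used here does not say which.

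Erbb2, the partner receptor without a ligand, read 91.7, 64.2 and 74.5 in wild-type sham, 72.6, 55.9 and 63.5 in wild-type banded, 70.1, 86.9 and 78.8 in knockout sham, and 83.7, 59.7 and 70.8 in knockout banded hearts. All groups overlapped, and its averaged banding difference was -0.16 (interval -0.41 to 0.08, adjusted p = 0.473, limma). Erbb3, a neuregulin receptor, read 225, 236 and 259 in wild-type sham, 240.0, 200.2 and 169 in wild-type banded, 228, 219.9 and 207 in knockout sham, and 228, 177 and 196 in knockout banded hearts. The highest banded Erbb3 arrays reached the sham range in both genotypes, and the averaged difference was -0.18 (interval -0.38 to 0.02, adjusted p = 0.335, limma). Its second probe set, at 6.66 to 34.3, gave 0.10 (interval -0.36 to 0.55). Summed intensities of the 4 measured Schwann cell and nerve markers, cells known for Erbb3, were 338 to 403 in wild-type sham, 297 to 351 in wild-type banded, 264 to 338 in knockout sham and 241 to 292 in knockout banded hearts, and their part in the Erbb3 values was not tested.

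Erbb4, the main neuregulin receptor of cardiomyocytes, was below 16 on all 12 arrays. It read 1.78, 3.67 and 2.10 in wild-type sham, 2.19, 3.74 and 4.14 in wild-type banded, 1.27, 2.99 and 2.36 in knockout sham, and 3.12, 9.13 and 11.2 in knockout banded hearts. The 3 knockout banded arrays lay above the knockout sham arrays, as 9.05% of all probe sets did upward, with knockout banded 2 and 3 highest again. The Erbb4 difference was 0.37 (interval 0.10 to 0.65, adjusted p = 0.203, limma). Without knockout banded 1 it was 0.52 and passed (adjusted p = 0.0198, limma), as 4.96% of all probe sets did. With so little signal on 1 probe set, these values do not measure how much Erbb4 RNA the hearts held.

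**Figure D4:**
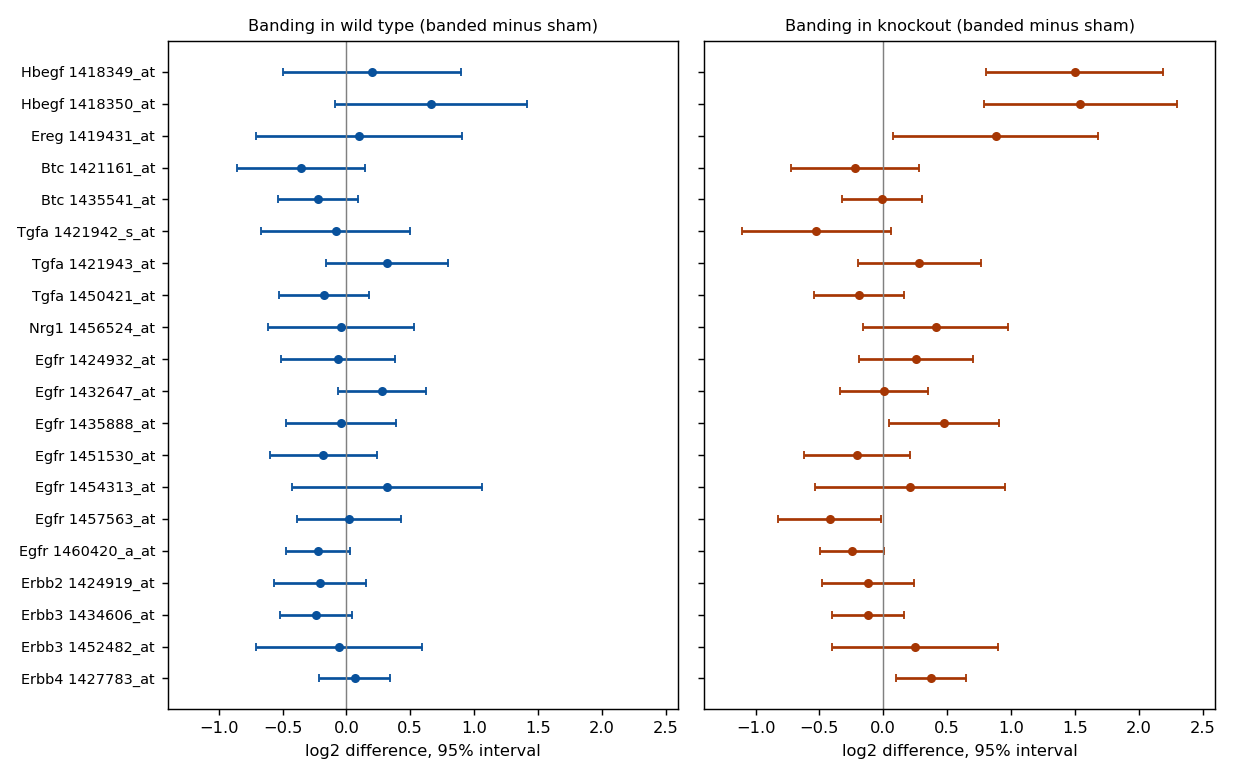
Log2 difference of banded minus sham (horizontal axis, points with 95% intervals) for each of the 20 member probe sets, in wild-type hearts on the left and in knockout hearts on the right. The 2 Hbegf probe sets stand at 1.50 and 1.54 in knockout hearts. The knockout intervals of Ereg, Erbb4 and the Egfr probe set 1435888_at also lie above 0. That of the Egfr probe set 1457563_at, which reads below 16 on all arrays, lies below 0. In wild-type hearts all 20 intervals include 0.

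The wider pathway was examined through 5 gene lists. Of the other EGF-family ligands, 5 were on the array and 1, Egf, was tested. Egf read 220.2, 169 and 204 in wild-type sham, 168, 208 and 73.2 in wild-type banded, 182, 213 and 325 in knockout sham, and 140.0, 136 and 68.4 in knockout banded hearts. It was lower on all knockout banded than on all knockout sham arrays, as 14.4% of tested genes were. The Egf difference was -0.98 (SE 0.33, interval -1.69 to -0.27) and did not pass (adjusted p = 0.109, limma).

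Of 11 tested genes of ligand shedding and presentation, 2 rose in knockout hearts and 9 did not pass, where 2.05% of all tested genes passed upward. The median difference of the list was 0.35, against -0.02 over all tested genes. Cd44, a surface receptor that can present heparin-binding EGF, read 109, 89.2 and 132 in knockout sham and 181, 357 and 283 in knockout banded hearts, a rise of 1.17 (SE 0.20, adjusted p = 0.0167, limma). The Cd44 arrays did not overlap in wild-type hearts either (137, 143 and 130.4 against 207, 196 and 160.4), as in 3.76% of tested genes upward. The rise averaged over genotypes was 0.79 (SE 0.14, adjusted p = 0.0262, limma). Adam9, a metalloprotease able to shed Hbegf, read 536, 615 and 611 in knockout sham and 698, 1177 and 956 in knockout banded hearts, a rise of 0.64 (SE 0.16, adjusted p = 0.0477, limma). Both genes were highest on knockout banded 2 and 3. They are named because they passed for banding in knockout hearts, so this is not separate evidence of likeness to Hbegf. Other Cd44 probe sets ranged from 0.00 to 0.97.

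Of 21 tested receptor adaptors and attenuators, 2 rose in knockout hearts and 19 did not pass (2.05% upward over all tested genes), with a median of 0.04. Gab2, a docking adaptor, read 199, 257 and 276 in knockout sham and 314, 568 and 515 in knockout banded hearts, a rise of 0.86 (SE 0.21, adjusted p = 0.0431, limma). Socs4, which limits Egfr signalling, read 234, 237 and 241 in knockout sham and 302, 339.9 and 294 in knockout banded hearts, a rise of 0.37 (SE 0.09, adjusted p = 0.0467, limma). Other probe sets of Gab2 (-0.07 and 0.06) and Socs4 (-0.18 to 0.34) did not follow closely.

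Of 15 tested genes of the Ras-ERK cascade and its feedback, 2 rose in knockout hearts and 13 did not pass (2.05% upward over all tested genes), with a median of 0.11. Both are feedback inhibitors that ERK signalling is known to induce. Spry1, a Sprouty protein, read 170.4, 204 and 176 in knockout sham and 273, 453 and 461 in knockout banded hearts, a rise of 1.01 (SE 0.20, adjusted p = 0.0213, limma). Dusp6, an ERK phosphatase, read 229.6, 151 and 167 in knockout sham and 259.5, 518 and 442 in knockout banded hearts, a rise of 1.06 (SE 0.23, adjusted p = 0.0306, limma). Both stood highest on knockout banded 2 and 3, but they too are named because they passed in this comparison, so this is not separate evidence. In wild-type hearts the Spry1 difference was 0.22 and the Dusp6 difference 0.01.

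Of 17 tested genes of the PI3K-Akt cascade, 2 fell in knockout hearts and 15 did not pass (1.76% downward over all tested genes), with a median of -0.06. Pik3r1, a regulatory subunit of PI3K, read 1302, 1263 and 1189 in knockout sham and 872, 668 and 706 in knockout banded hearts, and fell by 0.74 (SE 0.15, adjusted p = 0.0225, limma). Akt2, one of the Akt kinases, read 879, 896 and 843 in knockout sham and 706, 582 and 608 in knockout banded hearts, and fell by 0.46 (SE 0.09, adjusted p = 0.0241, limma). Akt2 also fell with banding averaged over genotypes, by 0.30 (SE 0.07, adjusted p = 0.0454, limma). All probe sets of Pik3r1 (-0.98 to -0.67) and of Akt2 (-0.55 to -0.40) had negative differences.

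**Figure D5:**
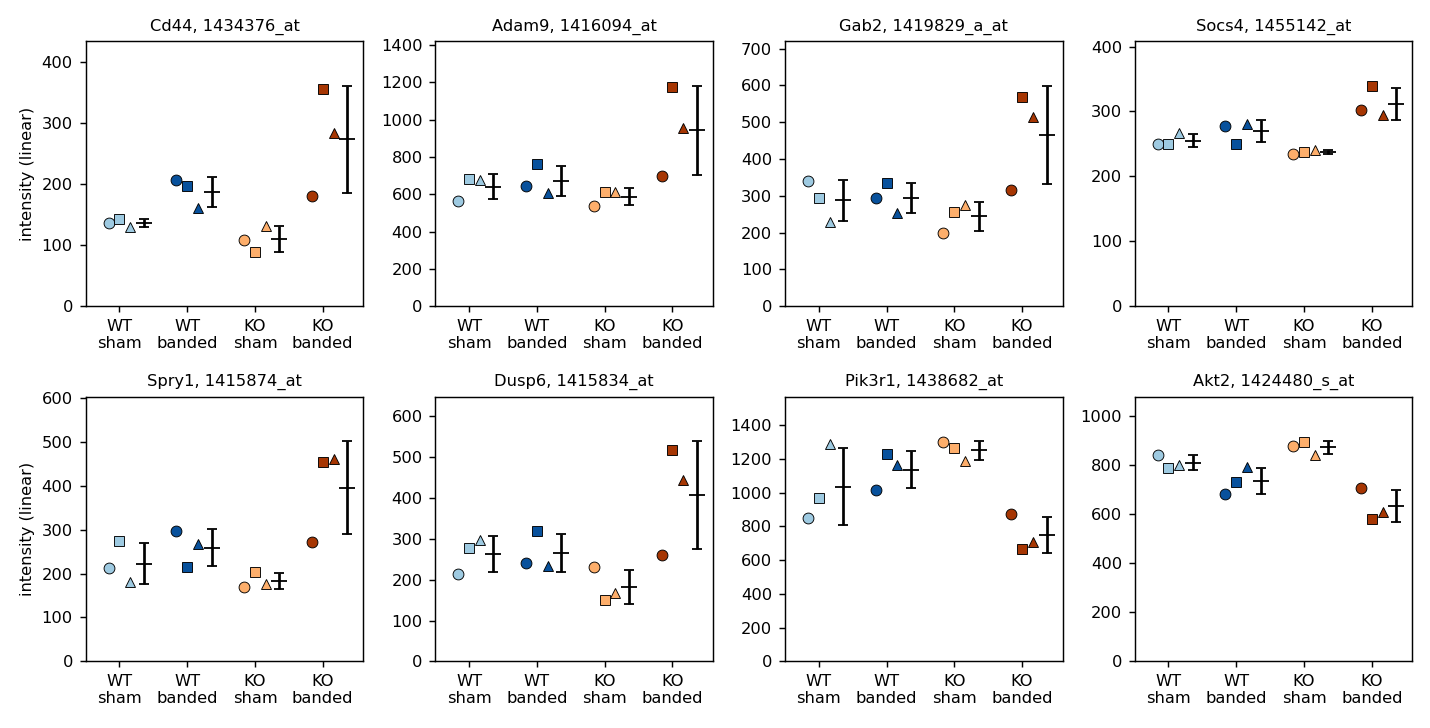
Intensity (vertical axis, linear scale, 1 range per panel) of the 8 pathway genes that passed for banding in knockout hearts, on each array (points, marker shape by array number) with group mean and SD. Cd44, Adam9, Gab2, Socs4, Spry1 and Dusp6 are higher and Pik3r1 and Akt2 lower on the knockout banded than on the knockout sham arrays; Cd44 reads 357 and 283 on the arrays labelled knockout banded 2 and 3.

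None of the 8 genes passed for banding in wild-type hearts, where 1 of the 65 tested listed genes had an unadjusted p under 0.05 in limma, against 4.89% of all tested genes. None passed in the test of the difference between responses, for which their adjusted p-values ran from 0.402 for Pik3r1 to 0.538 for Socs4 (limma). Like the Hbegf call, all 8 calls were lost without knockout banded 2 or without knockout banded 3. Most of the 416 calls over all tested genes were lost in those fits too, so this loss is not particular to these genes. Over the 23 alternatives in knockout hearts, Cd44 and Pik3r1 passed in 18, Spry1 and Dusp6 in 17 and Akt2 in 15, but Gab2 in 8, Adam9 in 7 and Socs4 in 6. Without knockout banded 1, 15 of the 65 listed genes passed, the 8 among them, where 13.2% of all tested genes passed.

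Fibroblast and macrophage marker sums differed among the knockout banded arrays. Knockout banded 2 had summed fibroblast markers of 8288 and macrophage markers of 2871, and knockout banded 3, with the highest Hbegf, had 7696 and 2973. The array labelled knockout banded 1 had 5662 and 2085. All knockout sham arrays lay between 6011 and 7293 for fibroblast and between 2143 and 2351 for macrophage markers. The fibroblast markers did not move as 1 set. On knockout banded 3, Pdgfra (593) and Col1a1 (639) lay above the knockout sham arrays, and Dcn, Lum, Tcf21 and Ddr2 lay within their range. On knockout banded 2, all of these except Dcn lay above that range. In wild-type hearts the fibroblast sums were 7052 to 9218 after sham surgery and 8508 to 10141 after banding, and the macrophage sums 2113 to 2954 and 2069 to 2978. Endothelial sums were 3043 to 3378 in knockout banded and 2701 to 2935 in knockout sham hearts, and cardiomyocyte sums 46579 to 47919 and 55959 to 61736. Wild-type sums spread more widely, at 2770 to 3940 after sham surgery and 3022 to 3387 after banding for endothelium. For cardiomyocyte markers they were 46725 to 86157 and 53126 to 65485. Atrial marker sums ranged from 4175 to 35744 over the 12 arrays and were 12533 to 16644 in knockout banded hearts. The part of these cell types in the Hbegf, Ereg and pathway results was not tested.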

How the data were processed

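The data are the intensity values deposited by the authors, 1 per probe set and array, on a linear scale with a common trimmed mean; the software that made them is not given in the sources used here. Of 45101 probe sets, 34945 had 1 gene, 932 had several and 9160 were not listed in the platform annotation, and 64 controls were left out; 34741 of the single-gene probe sets matched RefSeq by Entrez identifier. Values were taken as log2(value + 16). A gene was represented by its probe set of highest mean log2 value, and the upper 60% of genes (10916) were tested with limma 3.58.1 in R 4.3.3, as 1 model of 4 group means with a variance trend, 7 contrasts and Benjamini-Hochberg adjusted p under 0.05. A second fit took all single-gene probe sets. Single values were tested with exact two-sided permutation tests. p-values measure the spread between arrays labelled as biological replicates.

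Named genes are all members, listed pathway genes that passed (for a list with none, the one with the smallest p) and the 3 genes most like Hbegf. The members and lists were chosen with earlier results of these data known. Alternatives changed the filter, the constant (1 or 64), the scaling, the trend, array weights, the gene summary, the block and the arrays; those for the pathway lists were added after seeing the data. The test was checked on simulated data.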

Additional observations from a re-analysis of the deposited data

How the results depend on the processing

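For banding in knockout hearts the Hbegf difference was above 0 in all 23 alternatives, at 1.13 to 2.06, and passed in 16 of them; adjusted p-values over the 23 ran from 9.36e-05 to 0.142 (limma). The count of member genes that passed in that comparison went from 1 to 0 with no filter on low genes (Hbegf adjusted p = 0.0547) and with only the compared groups in the fit (0.085), and ran from 0 to 1 over the 12 fits that leave out an array. Averaged over genotypes it went from 1 to 0 with no filter (0.0716), without the variance trend (0.0592) and with probe sets averaged per gene (0.0638), and ran from 0 to 1 with an array left out; 7 of 22 alternatives kept the call. Knockout against wild type in banded hearts gained 1 member, Hbegf, with array weights (1.31, adjusted p = 0.0209) and without knockout banded 1 and wild-type banded 3 (1.44, 0.00891). Averaged over surgery it gained Hbegf without those 2 arrays (0.77, 0.0418). The share of all tested genes that passed in these fits is not given here, so the gains are not read as particular to Hbegf. Array weights also raised the calls over all genes for banding in knockout hearts. With an array left out, the counts for genotype in banded hearts, genotype averaged over surgery and the difference between responses ran from 0 to 1. The 1 was Hbegf without knockout banded 1. In that fit 6.11% of tested genes passed for genotype in banded hearts, 1.29% averaged over surgery and 1.91% for the difference between responses. Over the other 5 tested members, 0 of 790 alternative values passed.

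The replicate number as a block left Hbegf called in knockout hearts (adjusted p = 0.0396) and not averaged over genotypes (0.0578), a count of 0 members. All genes called fell from 416 to 237 and from 175 to 60 with the block. Same-numbered arrays of different groups correlated between -0.28 and 0.23, and 2 of 12 arrays matched their own number best, so the numbers were not taken to pair arrays.

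Egfr depended on the probe set: with the mean of its probe sets its averaged banding difference was 0.01. Over all genes, calls for banding in knockout hearts ran from 9 without knockout sham 3 to 1870 with array weights, and were 212 with no filter, 74 with only the compared groups, 17 without knockout banded 2 and 11 without knockout banded 3. Signal limits Ereg, Nrg1 and Erbb4, most of whose values lay below 16, and 3 arrays a group limit every comparison. The cause of these changes was not tested.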
